A study of Ostreococcus tauri with 84 samples.

Results

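DAHP synthase, encoded by ostta06g03270, is the subject of these measurements: 1 gene of 7668 with an expression value in Ostreococcus tauri strain RCC4221, taken by its identifier from the expression tables of the series. The annotation used by the study names its product a class II DAHP synthetase. RNA was sequenced from continuous cultures of this unicellular green alga in photochemostats, and 84 libraries in 6 light regimes were analysed. In DD after SD and DD after LD, cultures entrained to that photoperiod were kept in continuous darkness, and in LL after SD and LL after LD they were kept in continuous light at the maximum irradiance of the day, with sampling after 1 day of acclimation in each case. SD was a short day of 8 h light and 16 h dark, and LD a long day of 16 h light and 8 h dark. Samples were taken every 4 h at 6 time points, written ZT (hours after lights on) in the diel cycles and CT (hours after subjective dawn) in the free-running regimes. Samples at a change of light followed it directly, so that ZT0 was already lit, and the SD sample of ZT8 and the LD sample of ZT16 were already dark. Each time point had 3 samples in SD and in LD and 2 in each free-running regime, and the sample numbers (1 to 3, 4 and 5 in LL, 6 and 7 in DD) are days of sampling. The days were consecutive, and the number of cultures behind them was not clear from the sources used here. Cultures in SD were diluted more slowly than those in LD, so photoperiod, culture and dilution rate cannot be told apart, and p-values rest on the spread between days.

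DAHP synthase condenses phosphoenolpyruvate, from glycolysis, with erythrose 4-phosphate, from the Calvin cycle and the pentose phosphate pathway, and so draws carbon into the shikimate pathway. In plants and algae this pathway runs in the plastid and ends in chorismate, the common precursor of phenylalanine, tyrosine and tryptophan. Animals lack it. In bacteria and plants the first step is a known point of control of aromatic amino acid synthesis, by feedback inhibition in bacteria and by transcription and redox state in plants.

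The values are FPKM, fragments per kilobase of transcript and per 1000000 mapped reads of the same library. They are scaled per length, so levels can be compared between genes. DAHP synthase was detected in 84 of 84 libraries, between 58.4 and 294 FPKM, and its mean level lay above that of 80.0 to 90.5% of all genes in the 6 regimes. Mapped reads, estimated from the smallest values above 0 in each library, ran from 510000 to 14230000, which puts 193 to 4858 reads behind a DAHP synthase value, with 11 libraries under 1000. The lowest number belonged to the LD library of sample number 3 at ZT0. Of the photosynthesis genes taken as algal markers, PsaF was detected in 84 of 84 libraries and PsbP in 83 of 84, the exception being 1 LD library. The libraries of DD stood in a separate table from those of SD, LD and LL. Each library was scaled alone, so levels in DD set against the other regimes join both tables, and the table cannot be told apart from darkness.

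In SD, DAHP synthase rose after lights off and was low in the light. Sample numbers 1, 2 and 3 had 106, 143 and 123 FPKM at ZT0 and 105, 104 and 91.7 FPKM at ZT4. At ZT8 they had 113, 165 and 123 FPKM, at ZT12 223, 249 and 189 FPKM. The night values were 227, 232 and 194 FPKM at ZT16 and 177, 187 and 138 FPKM at ZT20. The lowest value of the day was at ZT4, the middle of the light period, on 3 of 3 days, and the 6 libraries of ZT12 and ZT16 lay above all SD libraries of the other times. The means spanned 100.2 ± 7.34 FPKM at ZT4 and 220.4 ± 30.3 FPKM at ZT12 (SD over 3 samples), a ratio of 2.20. By a circular rank test of a 24 h rhythm, written after the RAIN method with 1000000 permutations of the ranks, the SD profile was rhythmic (adjusted p = 1.8e-04, Benjamini-Hochberg over 7668 genes, permutation). The same test called 51.6% of all genes rhythmic in SD. A 12 h rhythm in SD, the sign of 2 daily peaks, had an adjusted p of 0.94 by permutation, where the test called 4.98% of genes.

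In LD the transcript had a single deep trough in the middle of the light period. The study names DAHP synthase among the genes of amino acid metabolism with a night peak in LD, so the LD rhythm is given as a description with no test. At ZT0 sample numbers 1, 2 and 3 had 229, 213 and 235 FPKM, and at ZT4 183, 174 and 178 FPKM. The ZT8 values were 92.4, 95.1 and 127 FPKM, the lowest of the day on 3 of 3 days. ZT12 gave 194, 199 and 203 FPKM, still in the light. At ZT16 the level was 255, 216 and 252 FPKM, and at ZT20 it was 254, 256 and 279.8 FPKM. The 3 ZT8 libraries were below every other LD library. The highest mean, 263 ± 14.1 FPKM at ZT20, was 2.51 times the lowest, 105 ± 19.3 FPKM at ZT8 (SD over 3 samples).

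**Figure D1:**
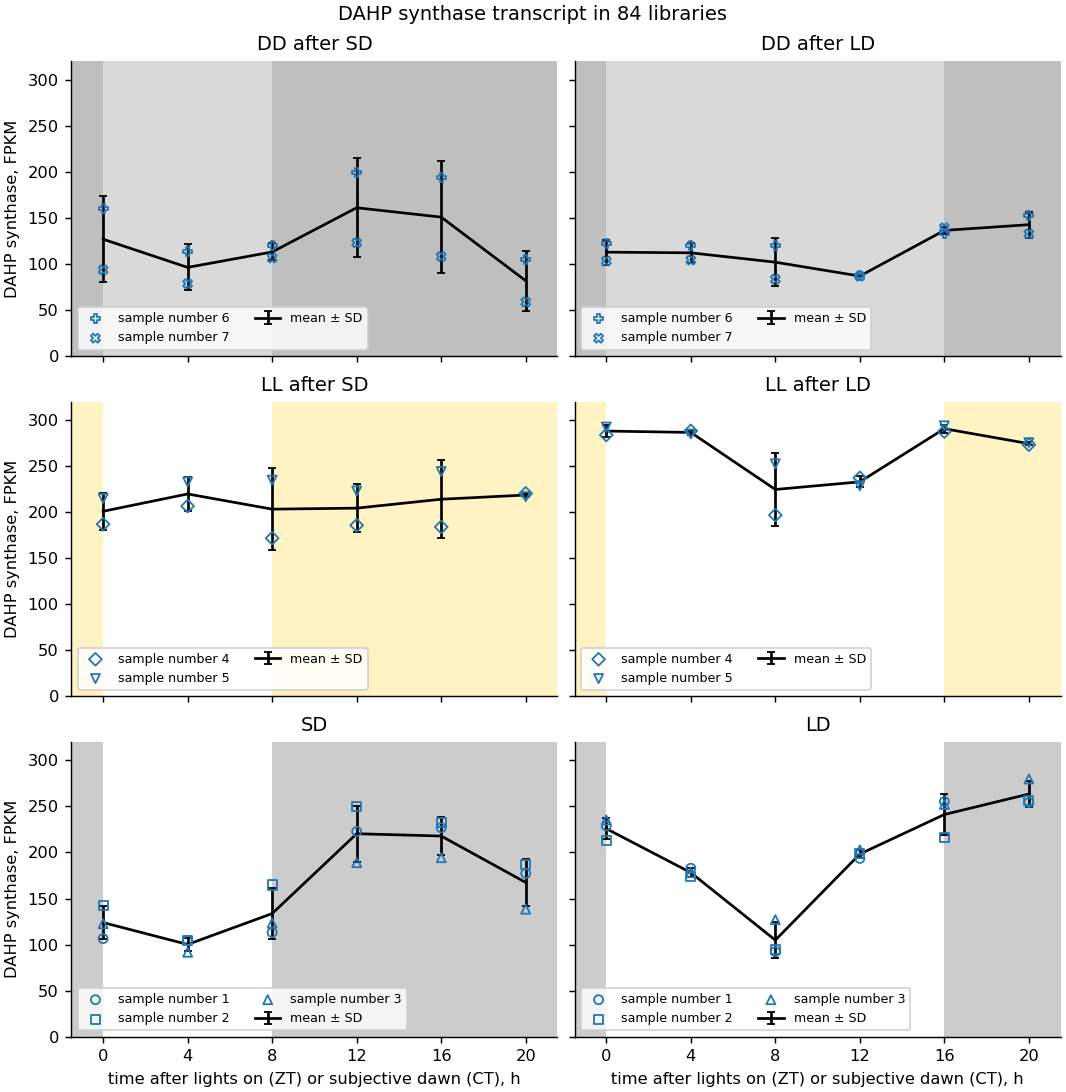
DAHP synthase in FPKM (vertical axis) against hours after lights on or subjective dawn (horizontal axis) in DD, LL and the diel cycles, with SD or SD history on the left and LD or LD history on the right. Symbols are single libraries by sample number, lines join the means with SD bars, grey marks darkness (darker grey the subjective night in DD) and yellow the light given in the subjective night of LL: the trough lies at ZT4 in SD and at ZT8 in LD, and the means of LL after SD stay between 201 and 220 FPKM.

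A cosine of 24 h fitted to the FPKM of each regime placed the peak at 14.9 ± 0.46 h in SD and at 19.4 ± 0.42 h in LD (SE from the fit, 18 libraries each). The peak came 4.53 ± 0.62 h earlier in SD than in LD (adjusted p = 2.6e-07, delta method on the fits, Benjamini-Hochberg over all genes). An earlier peak in SD was called for 51.4% of genes and a later one for 6.61%, and the median shift of all genes was -5.03 h. Counted from lights off, the order was the opposite, with the peak 6.90 ± 0.46 h after lights off in SD and 3.43 ± 0.42 h in LD. The amplitude, measured as the height of the cosine above its mean, was 63.6 ± 7.58 FPKM in SD and 68.8 ± 7.52 FPKM in LD. The difference of -5.19 ± 10.7 FPKM was smaller than its SE (adjusted p = 0.77, delta method), in a comparison where 19.4% of genes were called lower in SD.

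These amplitudes depend on the scaling. With all libraries set to one upper quartile the amplitude was 44.1 FPKM in SD and 43.2 FPKM in LD, and the LD peak moved to 20.6 h. The SD trough at ZT4 was then no longer set apart. The SD means were 124 ± 21.4 FPKM at ZT0, 127 ± 10.9 FPKM at ZT4 and 133 ± 30.5 FPKM at ZT8. In LD the lowest mean stayed at ZT8 (126 ± 23.7 FPKM). The scale factor, which follows the upper quartile of all genes, averaged 0.791 at ZT4 and 1.16 at ZT12 in SD, and 0.831 at ZT8 and 1.15 at ZT16 in LD. It was lowest at the trough of DAHP synthase in both photoperiods, but at SD ZT0 and ZT8, where DAHP synthase was also low, it was 1.01. Its part in the rhythm of DAHP synthase was not tested. The rhythm in SD stayed called with this scaling (adjusted p = 0.0089, permutation rank test), and so did the earlier peak in SD (-5.53 ± 1.01 h, adjusted p = 2.4e-05).

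Time by time, DAHP synthase was lower in SD than in LD around dawn and late at night. In limma on log2(FPKM + 1) the difference at ZT0 was -0.87 ± 0.20 (log2, SE), with 124 ± 18.1 FPKM in SD and 226 ± 11.2 FPKM in LD (adjusted p = 2.3e-04, limma). At ZT4 it was -0.83 ± 0.20 (adjusted p = 6.2e-04, limma), with 100.2 ± 7.34 FPKM in SD and 178 ± 4.68 FPKM in LD. At ZT20 it was -0.66 ± 0.20 (adjusted p = 0.0064, limma), with 167 ± 25.6 FPKM in SD and 263 ± 14.1 FPKM in LD. The 3 SD samples lay below the 3 LD samples at each of these times, while at ZT8, ZT12 and ZT16 the samples of SD and LD overlapped and no difference was called. Lower levels in SD were called for 19.7%, 22.2% and 20.9% of genes at ZT0, ZT4 and ZT20. The call at ZT20 was lost without sample number 3 (log2 difference -0.49, adjusted p = 0.14, limma). An F test of the profile as a whole, which asks whether the SD to LD difference changes over the day, had an adjusted p of 1.1e-04 in limma, where it called 67.4% of genes.

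**Figure D2:**
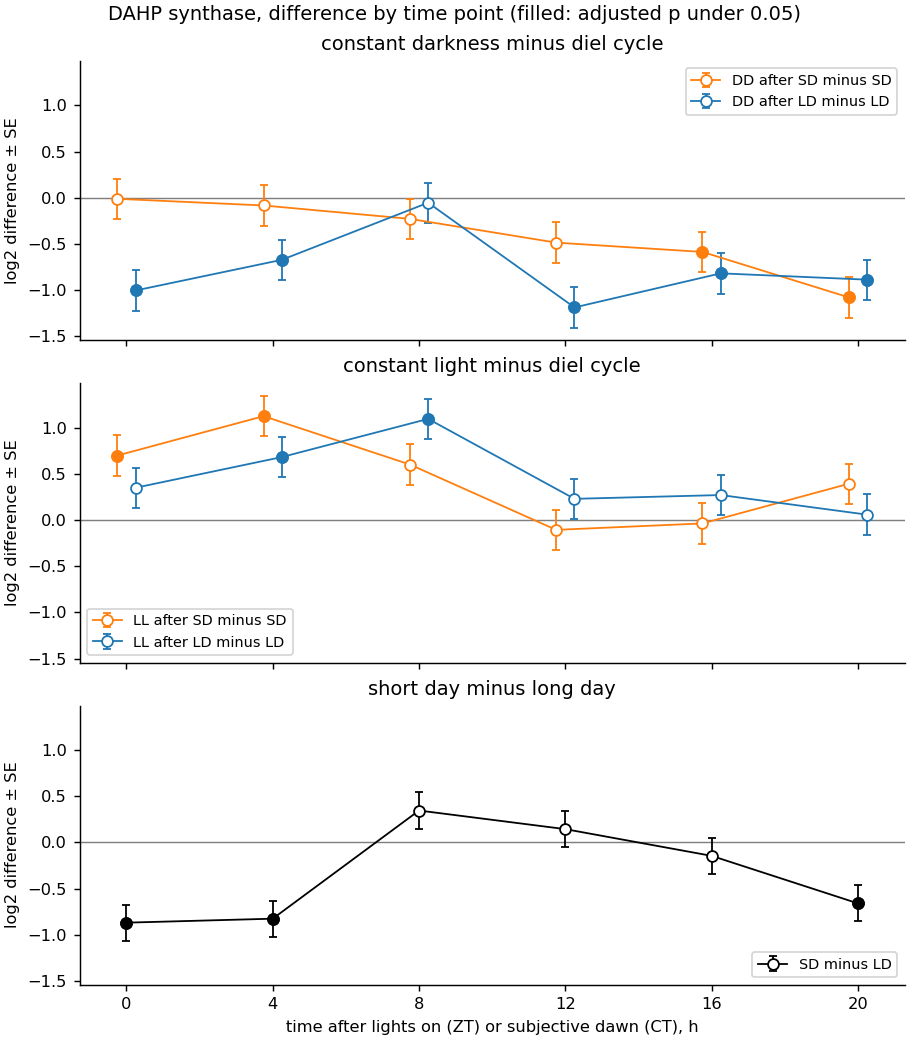
Log2 difference of DAHP synthase with SE bars (vertical axis) at each time point (horizontal axis, hours) for DD against the diel cycle, LL against the diel cycle, and SD against LD, from limma on log2(FPKM + 1), with filled points where the adjusted p was under 0.05. SD was lower than LD at ZT0, ZT4 and ZT20, LL was higher than its diel cycle around the trough of that cycle, and DD after LD was lower than LD at 5 of the 6 times.

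Averaged over the 6 time points, SD had 161 ± 18.5 FPKM and LD 202 ± 10.2 FPKM (SD over 3 days). The difference was -0.34 ± 0.08 on the log2 scale, or 0.792-fold (adjusted p = 4.5e-04, limma), in a comparison where 27.5% of genes were called higher and 18.9% lower in SD. The day means were 159, 180.0 and 143 FPKM in SD and 201, 192 and 213 FPKM in LD, so the days did not overlap. This test counts the 6 libraries of a day as independent. With 1 value per regime and day the adjusted p was 0.17, and without sample number 3 it was 0.068 (log2 difference -0.22).

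In continuous light the daily trough was shallow or missing. After LD entrainment, sample numbers 4 and 5 had 284 and 292 FPKM at CT0, 288 and 285 FPKM at CT4 and 197 and 252 FPKM at CT8. The later values were 237 and 228 FPKM at CT12, 287 and 294 FPKM at CT16 and 273 and 275 FPKM at CT20. Numbers 4 and 5 had their lowest value at CT8 and CT12, later or equal to the LD trough at ZT8, and the highest mean was 1.29 times the lowest. After SD entrainment the same numbers had 187 and 215 FPKM at CT0, 206 and 233 FPKM at CT4 and 172 and 235 FPKM at CT8. They had 186 and 223 FPKM at CT12, 184 and 244 FPKM at CT16 and 220.2 and 217 FPKM at CT20. The highest mean was 1.09 times the lowest, and number 5 was above number 4 at 5 of the 6 times, by more than the means differed between times. No 24 h rhythm was called in LL after LD (adjusted p = 0.44, permutation rank test) or in LL after SD (adjusted p = 1.0). The test called 0% of genes in LL after LD, with 1696 genes at an unadjusted p under 0.05, and 0.0522% in LL after SD. A harmonic fit in limma gave DAHP synthase adjusted p of 0.20 after LD and 0.98 after SD, and called 0 genes after LD and 20 after SD.

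The fitted amplitude fell in LL after either entrainment. After SD it was 3.65 ± 10.4 FPKM in LL and 63.6 ± 7.58 FPKM in SD, a difference of -59.9 ± 12.9 FPKM (adjusted p = 0.0020, delta method, 22.7% of genes called lower). The amplitude in LL after SD was 14.4 FPKM without sample number 5 and 7.78 FPKM without number 4, and the difference stayed called without each. After LD it was 30.3 ± 9.56 FPKM in LL and 68.8 ± 7.52 FPKM in LD, a difference of -38.5 ± 12.2 FPKM (adjusted p = 0.016, delta method, 38.5% of genes called lower). With one upper quartile the difference after LD was -26.4 FPKM and no longer called (adjusted p = 0.094), nor was it called without sample number 1 (adjusted p = 0.055) or 5 (adjusted p = 0.26). The peak in LL after LD, at 21.9 ± 1.21 h, was 2.51 ± 1.28 h later than in LD (adjusted p = 0.28, delta method, 1.04% of genes called earlier and 4.02% later). In LL after SD, where 6.86% of genes were called earlier and 17% later than in SD, the amplitude of DAHP synthase was under its SE and its peak had no defined time.

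The mean level was higher in continuous light. LL after LD averaged 266 ± 7.15 FPKM (SD over 2 days) and LD 202 ± 10.2 FPKM, a log2 difference of 0.45 ± 0.09 (adjusted p = 1.5e-04, limma). Higher levels in LL after LD were called for 20.9% of genes and lower ones for 4.73%. LL after SD averaged 210.0 ± 24.9 FPKM and SD 161 ± 18.5 FPKM, again a log2 difference of 0.45 ± 0.09 (adjusted p = 8.6e-05, limma), where 22.5% of genes were called higher and 10.9% lower. With 1 value per regime and day neither was called (adjusted p = 0.25 after LD and 0.16 after SD, limma), and the call after SD was lost without sample number 5 (log2 difference 0.32, adjusted p = 0.066). The responses to LL after SD and after LD differed by -0.00 ± 0.13 on the log2 scale (adjusted p = 1.0, limma, 7.84% of genes called).

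The gain in light was concentrated at the hours of the diel trough. After SD, LL was higher at CT4, with 220 ± 18.6 FPKM in LL and 100.2 ± 7.34 FPKM in SD (log2 difference 1.12 ± 0.22, adjusted p = 1.0e-04, limma, 25.3% of genes called higher). At CT0 it had 201 ± 19.8 FPKM in LL and 124 ± 18.1 FPKM in SD (log2 difference 0.70 ± 0.22, adjusted p = 0.017, limma, 11% called higher). After LD, LL was higher at CT8, with 225 ± 39.4 FPKM in LL and 105 ± 19.3 FPKM in LD (log2 difference 1.10 ± 0.22, adjusted p = 1.6e-04, limma, 16.6% called higher), and at CT4, with 286 ± 2.40 FPKM in LL and 178 ± 4.68 FPKM in LD (log2 difference 0.68 ± 0.22, adjusted p = 0.021, limma, 16.7% called higher). At the other times no difference was called. In LL against LD the CT4 call was lost without any 1 of the 5 sample numbers (adjusted p 0.051 to 0.20, limma) and the CT8 call without 1 of them (adjusted p up to 0.067). In LL against SD the CT0 call was lost without any of 3 numbers (up to 0.29), while the CT4 call held without each (up to 0.022). The F test of the whole profile gave adjusted p of 0.0093 for LL after SD against SD and 0.048 for LL after LD against LD (limma, 25.2% and 39.8% of genes called), and both were lost with one upper quartile (0.11 and 0.15).

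In continuous darkness DAHP synthase was low after either entrainment. After LD, sample numbers 6 and 7 had 122 and 103 FPKM at CT0, 119.7 and 104 FPKM at CT4 and 120.1 and 83.3 FPKM at CT8. They had 86.8 and 86.4 FPKM at CT12, 133 and 139 FPKM at CT16 and 152 and 132 FPKM at CT20. In the values as deposited, the 4 libraries of CT16 and CT20 were the highest of the 12, at the hours of the LD night. After SD, the same numbers had 159.8 and 93.4 FPKM at CT0, 114 and 78.4 FPKM at CT4 and 119 and 106 FPKM at CT8. The later values were 199 and 123 FPKM at CT12, 193 and 108 FPKM at CT16 and 105 and 58.4 FPKM at CT20. Number 6 was above number 7 at 6 of 6 times in DD after SD, and within each of these days the highest value was at CT12 and the lowest at CT20. These times depend on the scaling. With one upper quartile the lowest values of numbers 6 and 7 were at CT4 (111 and 81.9 FPKM). The highest value of number 6 was then at CT16 (190 FPKM).

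No rhythm was called in darkness. The adjusted p was 0.24 in DD after SD and 0.23 in DD after LD by the permutation rank test, which called 36.6% and 0% of genes (2709 genes in DD after LD had an unadjusted p under 0.05). Limma with cosine and sine terms gave 0.36 and 0.11, where it called 50.8% and 30.1% of genes. A replicate block by sample number brought the rank test to 0.11 in both, where it called 55% and 48.5% of genes. The fitted amplitude was 26.6 ± 17.1 FPKM with a peak at 13.0 ± 2.46 h in DD after SD, and 22.0 ± 7.08 FPKM with a peak at 20.1 ± 1.23 h in DD after LD. The difference in amplitude between DD after LD and LD was -46.8 ± 10.3 FPKM (adjusted p = 0.0019, delta method, 21.5% of genes called lower), but -20.8 FPKM with one upper quartile (adjusted p = 0.20) and not called on the log2 scale either (adjusted p = 0.12). Between DD after SD and SD it was -37.0 ± 18.7 FPKM (adjusted p = 0.21, 5.99% called lower). The peaks in DD did not differ from those of the diel cycles by more than their errors, with differences of -1.92 ± 2.50 h for DD after SD against SD (adjusted p = 0.62, 14.9% of genes called earlier and 12.2% later) and 0.65 ± 1.30 h for DD after LD against LD (adjusted p = 0.74, 19.7% earlier and 1.9% later).

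The mean level in DD after LD was 115 ± 10.2 FPKM (SD over 2 days), against 202 ± 10.2 FPKM in LD, a log2 difference of -0.77 ± 0.09 (adjusted p = 1.8e-10, limma). Lower levels were called for 30.1% of genes and higher ones for 31.1%. This call held with 1 value per regime and day and without each sample number. By time point, DD after LD was called lower at CT0, CT4, CT12, CT16 and CT20, by 0.67 to 1.19 on the log2 scale, in comparisons where 9.87 to 18.8% of genes were called lower. At CT8 the values were 102 ± 26.0 FPKM in DD after LD and 105 ± 19.3 FPKM in LD, with a log2 difference of -0.05 ± 0.22 (adjusted p = 0.88, limma). The 12 libraries of DD after LD, between 83.3 and 152 FPKM, lay around the mean of the LD trough, 105 FPKM.

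DD after SD averaged 121 ± 38.0 FPKM and SD 161 ± 18.5 FPKM, a log2 difference of -0.41 ± 0.09 (adjusted p = 8.3e-05, limma), where 38.7% of genes were called lower and 23.6% higher. This difference rests on sample number 7: without it the log2 difference was -0.092 (adjusted p = 0.38, limma). With 1 value per regime and day the adjusted p was 0.092 (limma). With one upper quartile the log2 difference was -0.30, and the median of all genes was then -0.04 in place of -0.14. At CT20 the values were 81.5 ± 32.6 FPKM in DD after SD and 167 ± 25.6 FPKM in SD (log2 difference -1.08 ± 0.22, adjusted p = 7.3e-05, limma, 38.3% of genes called lower), and this call held without each sample number. The gap was smaller with one upper quartile, at 106 ± 17.9 FPKM in DD after SD and 163 ± 31.3 FPKM in SD. The scale factor averaged 0.755 in DD after SD at CT20. At CT16 the values as deposited were 151 ± 60.4 FPKM in DD after SD and 218 ± 20.6 FPKM in SD (log2 difference -0.58 ± 0.22, adjusted p = 0.033, limma, 24.5% called lower), a call lost without any of 3 sample numbers (adjusted p up to 0.64). At the other 4 times no difference was called. The F test of the profile had adjusted p of 0.035 for DD after SD against SD and 0.033 for DD after LD against LD (limma, 37.4% and 42.6% of genes called), and both were lost with one upper quartile (0.44 and 0.16).

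Set in order, the mean levels were 115 FPKM in DD after LD, 121 FPKM in DD after SD, 161 FPKM in SD, 202 FPKM in LD, 210.0 FPKM in LL after SD and 266 FPKM in LL after LD. Neighbours in this order that did not differ beyond their spread were DD after SD and DD after LD, with a log2 difference of 0.02 ± 0.10 (adjusted p = 0.92, limma, 3% of genes called higher and 7.52% lower), and LL after SD and LD, with a log2 difference of 0.11 ± 0.09 (adjusted p = 0.32, limma). LL after SD was lower than LL after LD, with a log2 difference of -0.34 ± 0.10 (adjusted p = 0.0059, limma, 12.8% of genes called lower), but this was not called with 1 value per regime and day (adjusted p = 0.38) or without sample number 4 (adjusted p = 0.39).

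Darkness and light were furthest apart. DD after LD and LL after LD did not overlap, with 83.3 to 152 FPKM in 12 DD libraries and 197 to 294 FPKM in 12 LL libraries. The log2 difference was -1.22 ± 0.10 (adjusted p = 1.5e-15, limma), which is 0.430-fold, where 36.9% of genes were called lower and 26.2% higher in DD. DD after SD spanned 58.4 to 199 FPKM and LL after SD 172 to 244 FPKM, with a log2 difference of -0.86 ± 0.10 (adjusted p = 6.7e-11, limma, 43% of genes called lower and 20.7% higher). Both differences stayed called with 1 value per regime and day and without each sample number. The median of all genes lay at -0.11 after LD and -0.24 after SD in these comparisons, and at 0.01 and -0.06 with one upper quartile. DAHP synthase then differed by -1.09 after LD and by -0.65 after SD.

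**Figure D3:**
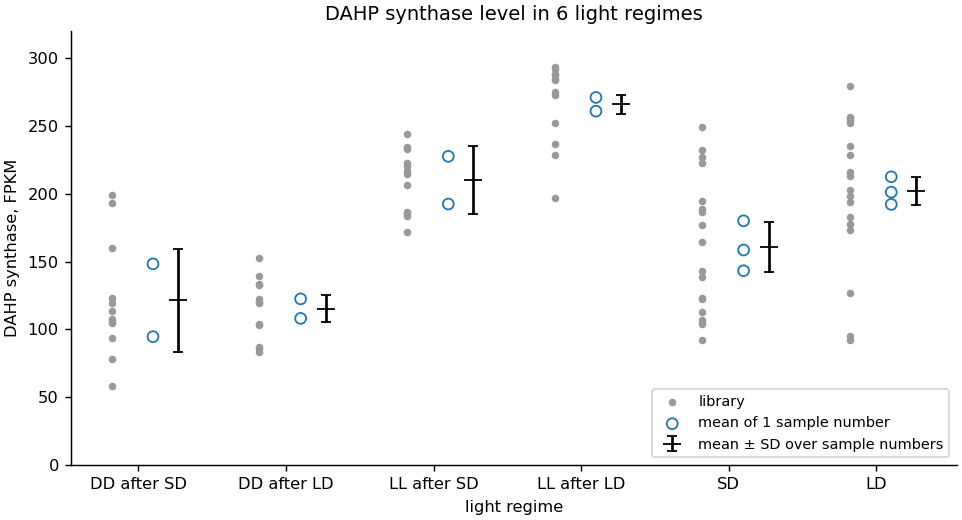
DAHP synthase in FPKM (vertical axis) in the 6 light regimes (horizontal axis), with grey points for libraries, open circles for the mean of each sample number and bars for the mean ± SD over sample numbers. The 12 libraries of DD after LD lie below the 12 of LL after LD, and the sample numbers of DD after SD lie furthest apart.

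Other genes of the aromatic pathway were followed through a list of 9 genes drawn up from the annotation. It holds 2 further enzymes of the shikimate pathway proper, chorismate synthase and genes of the branches to the 3 amino acids. The list does not cover the whole pathway: shikimate kinase, EPSP synthase and the anthranilate enzymes are not in it. Counts and ranks below are among the listed genes. The list was chosen with earlier results of these data known. In LD the mean level of DAHP synthase, 202 FPKM, was at rank 3 of the 10 genes, below indole-3-glycerol phosphate synthase (ostta06g04200), of the tryptophan branch, with 285 FPKM and tryptophan synthase beta chain (ostta07g02810) with 279.7 FPKM. The lowest was 3-dehydroquinate synthase (ostta04g00810), which closes the first ring of the pathway, with 21.6 FPKM.

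In SD against LD, 1 of the 9 pathway genes was called higher and 4 lower (27.5% and 18.9% of all genes), with a median log2 difference of -0.10 against 0.05 for all genes. The 4 were 3-dehydroquinate synthase (-0.36 ± 0.14), chorismate mutase (ostta08g02920, -0.23), which makes prephenate, prephenate dehydratase (ostta01g01230, -0.43), of the phenylalanine branch, and tryptophan synthase beta chain (-0.53). Without sample number 1 or 2 the count of lower genes was 2. The gene called higher was prephenate dehydrogenase (ostta02g01980, log2 difference 0.59 ± 0.07, adjusted p = 3.5e-09, limma), of the tyrosine branch, with a mean of 252 FPKM in SD and 169 FPKM in LD.

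In LL against LD, 4 of 9 were called higher and 0 lower (20.9% and 4.73% of all genes), and in LL against SD 6 and 0 (22.5% and 10.9%). Shikimate dehydrogenase (ostta12g02610), which makes shikimate, was among both, with log2 differences of 0.59 after SD and 0.73 after LD, and so was tryptophan synthase alpha chain (ostta04g00300) with 0.46 and 0.88. Chorismate synthase (ostta02g03640), the last step of the common pathway, had 0.35 and 0.36, and indole-3-glycerol phosphate synthase had 0.27 and 0.28. The count after SD was 1 without sample number 5 and 4 to 6 without each of the other numbers.

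In DD against LL, 6 of 9 pathway genes were called lower after LD and 6 after SD (36.9% and 43% of all genes), and 0 and 2 were called higher (26.2% and 20.7% of all genes), with median log2 differences of -0.85 and -0.55 against -0.11 and -0.24 for all genes. Without sample number 7 the count of lower genes after SD was 3, while after LD it was 6 without each number. In the fit to all libraries the 6 called after LD and the 6 called after SD were both shikimate dehydrogenase, chorismate synthase, prephenate dehydratase, indole-3-glycerol phosphate synthase and the chains of tryptophan synthase. The other 3 were 3-dehydroquinate synthase, chorismate mutase and prephenate dehydrogenase. After SD, 3-dehydroquinate synthase and chorismate mutase were called higher in DD than in LL (log2 differences 0.44 and 0.50), and after LD neither was called (0.01 and 0.09). In DD against LD, 0 of 9 were called higher and 4 lower (31.1% and 30.1% of all genes), and in DD against SD 2 and 2 (23.6% and 38.7%). Leaving out a sample number gave 1 to 3 higher and 1 to 6 lower in DD against SD, with 1 lower without number 2 or 7 and 6 without number 6. DAHP synthase had the largest drop of the 10 genes in DD against LL, both after LD and after SD, though differences between the genes were not tested. The next were tryptophan synthase alpha chain after LD (-1.11) and its beta chain after SD (-0.84). Without 1 sample number DAHP synthase had -1.18 to -0.54 after SD, a range that holds the value of the beta chain.

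**Figure D4:**
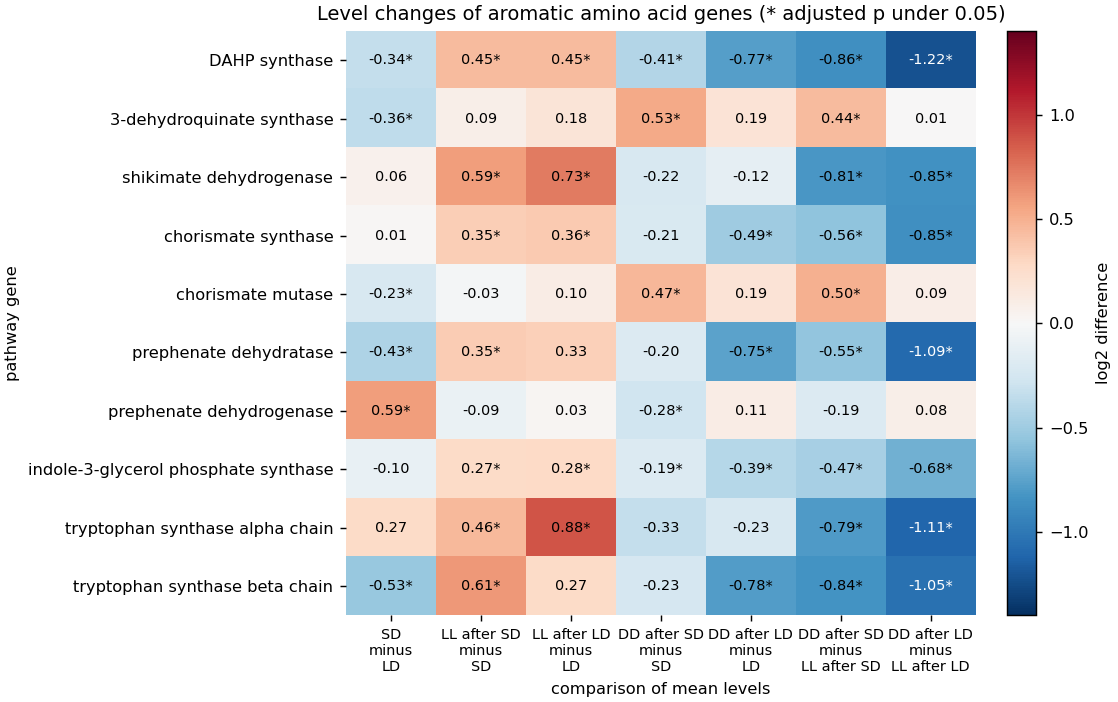
Log2 difference in mean level (colour and printed value) of the 10 aromatic amino acid genes (rows) in 7 comparisons of light regimes (columns), with an asterisk where the limma adjusted p was under 0.05. DAHP synthase, in the top row, was higher in LL and lower in DD, while 3-dehydroquinate synthase, chorismate mutase and prephenate dehydrogenase were not called lower in DD than in LL.

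Daily timing in the pathway moved with the photoperiod. The rank test called 6 of the 9 genes rhythmic in SD and 8 in LD (51.6% and 69.8% of all genes), 0 in LL after SD and LL after LD (0.0522% and 0%), 2 in DD after SD (36.6%) and 0 in DD after LD (0%). Under the replicate block, 6 were called in DD after SD and 6 in DD after LD (55% and 48.5% of all genes), 0 in LL after SD and 3 in LL after LD (0.261% and 8.44%), and 7 in SD and 8 in LD (59.2% and 72.8%). DAHP synthase was called in none of the free-running regimes under either test. The fitted peak was called earlier in SD than in LD for 8 of 9 pathway genes and later for 0 (51.4% and 6.61% of all genes), with a median shift of -7.91 h against -5.03 h for all genes. The shift of DAHP synthase, -4.53 h, was smaller than that of 3-dehydroquinate synthase (-7.91 ± 0.98 h), chorismate synthase (-8.54 ± 0.54 h), prephenate dehydratase (-8.85 ± 1.30 h) and indole-3-glycerol phosphate synthase (-6.58 ± 0.99 h); these differences between genes were not tested. Chorismate mutase (-3.32 ± 1.27 h) and prephenate dehydrogenase (-3.95 ± 1.39 h) moved by about as much. Shikimate dehydrogenase was the gene with no called shift (0.10 ± 1.73 h). The 8 include the chains of tryptophan synthase, at -8.53 ± 2.75 h for alpha and -10.9 ± 1.80 h for beta. A shift near 12 h can be read as earlier or later. The fitted peaks of the 10 genes in SD lay between 13.2 ± 0.76 h, for 3-dehydroquinate synthase, and 21.8 ± 2.45 h, for tryptophan synthase alpha chain. In LD the peak of shikimate dehydrogenase was at 15.5 ± 1.10 h and that of chorismate synthase at 0.05 ± 0.41 h, just after lights on. Tryptophan synthase peaked in the LD morning, at 6.28 ± 1.25 h for the alpha chain and 6.39 ± 0.76 h for the beta chain, and neither was called rhythmic in SD by the rank test, though the alpha chain was under the replicate block (adjusted p = 0.0062, permutation).

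**Figure D5:**
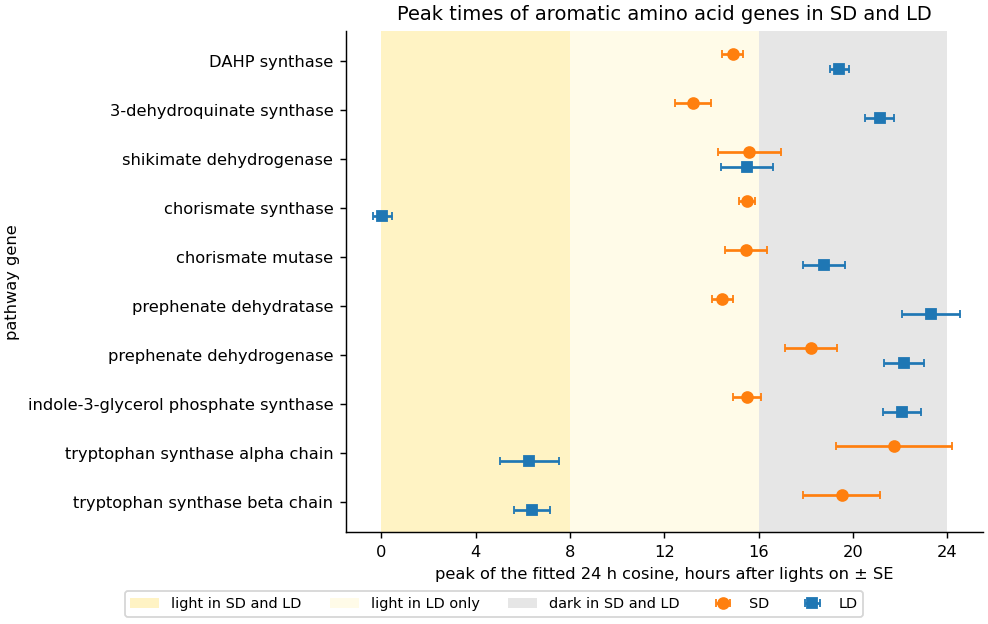
Peak of the fitted 24 h cosine in hours after lights on with SE (horizontal axis) for the 10 pathway genes (rows), with circles for SD and squares for LD, and shading for the hours that were light in both, light in LD only or dark in both. DAHP synthase peaked at 14.9 h in SD and 19.4 h in LD, and 8 of the other 9 genes were called earlier in SD.

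Genes of other amino acid pathways were compared through a list of 20. In SD against LD, 4 were called higher and 11 lower (27.5% and 18.9% of all genes). In LL against LD it was 12 and 0 (20.9% and 4.73%), and in LL against SD 14 and 0 (22.5% and 10.9%). In DD against LL it was 0 and 15 after LD (26.2% and 36.9%), and 0 and 13 after SD (20.7% and 43%). Their peak was called earlier in SD than in LD for 15 of 20 and later for 2 (51.4% and 6.61% of all genes), with a median shift of -6.44 h. The study names further genes beside DAHP synthase, chosen on these samples and so no independent evidence. Among these 5 genes the peak was called earlier in SD for 5 (51.4% of all genes). Diaminopimelate epimerase (ostta02g03980), of lysine synthesis, had a Pearson's r with DAHP synthase of 0.92, and the small subunit of acetolactate synthase (ostta11g00540), of branched-chain amino acid synthesis, also 0.92. The epimerase and acetolactate synthase genes are in the list of 20 as well. Uridylate kinase (ostta16g01780), an enzyme of nucleotide synthesis, had an r of -0.07 over all regimes and 0.81 over SD and LD alone. Its level in DD was higher, with 218 FPKM in DD after SD and 104 FPKM in SD (log2 difference 1.13), and 228 FPKM in DD after LD and 133 FPKM in LD (log2 difference 1.20).

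Likeness to DAHP synthase was measured as Pearson's r of log2(FPKM + 1) over the 36 means of regime and time point, for 6874 genes averaging at least 10 FPKM. These means share their libraries among genes, so r is a description, and the median over genes was 0.25. The 10 most alike genes had r from 0.94 to 0.97. The first was ostta03g01670, with a WD40/YVTN repeat (r = 0.97). It was followed by ostta06g01990, with an aldehyde dehydrogenase C-terminal domain, and ostta05g01300, a class-I aminotransferase, both at 0.96. The aminotransferase had its lowest mean at ZT4 in SD (153 ± 9.93 FPKM) and at ZT8 in LD (189.8 ± 5.70 FPKM), the trough times of DAHP synthase. Ostta18g01010, a decarboxylase of the ornithine, diaminopimelate and arginine family and also one of those 5 genes, had an r of 0.95. The other 6 were ostta13g01700 (annotated as related to AIR synthase, of purine synthesis), ostta14g01840 (lysine-tRNA ligase, which charges tRNA), ostta14g01750 (N-acetyl-gamma-glutamyl-phosphate reductase, of arginine synthesis), ostta20g00110 (a methionine aminopeptidase-type peptidase), ostta06g02920 (an aminoacyl-tRNA synthetase) and ostta06g04010 (with a translation factor domain). By Spearman's rho 5 of these 10 stayed among the 10 most alike, and over the 12 means of SD and LD alone 1 did.

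At the other end, ostta11g02520, with a domain of unknown function, had an r of -0.88, ostta10g03420, with the NADP-binding domain of a glyceraldehyde-3-phosphate dehydrogenase, -0.86, and ostta10g00270, with a bromodomain, -0.84. Ostta10g03420 averaged 7030 FPKM in DD after SD and 1742 FPKM in SD, and 7665 FPKM in DD after LD and 1721 FPKM in LD. Its highest diel mean was at ZT8 in LD (3493 ± 251 FPKM), the time of the DAHP synthase trough, and in SD at ZT0 (3087 ± 302 FPKM), before the trough at ZT4. Within the pathway, r was 0.91 for indole-3-glycerol phosphate synthase, 0.84 for prephenate dehydratase, 0.69 for shikimate dehydrogenase, 0.67 for chorismate synthase, 0.53 and 0.35 for the beta and alpha chains of tryptophan synthase, 0.32 for 3-dehydroquinate synthase, 0.18 for chorismate mutase and 0.04 for prephenate dehydrogenase.

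The annotated neighbours of DAHP synthase on chromosome 6 did not share its profile over SD and LD. Ostta06g03260, on one side, had an r of 0.18 over all regimes and -0.37 over SD and LD alone. It was higher in SD than in LD, with 54.9 FPKM in SD and 31.0 FPKM in LD (log2 difference 0.84, limma). Ostta06g03280, on the other side, is annotated as a P-loop nucleoside triphosphate hydrolase. This gene had an r of 0.53 over all regimes, where 29.3% of genes were above 0.5, and 0.03 over SD and LD alone. Its highest mean was at ZT8 in SD (477 ± 54.3 FPKM) and at ZT12 in LD (395 ± 103 FPKM), in the hours before the maximum of DAHP synthase.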

How the data were processed

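RNA of 84 libraries was analysed, 18 each in SD and LD and 12 in each free-running regime. The authors deposited FPKM values, made from single reads of 75 nt with FastQC, HISAT2 (v3.0 genome), StringTie and Ballgown, with tool versions not given in the sources used here. Of 182 whole numbers without decimals in the table of DD, 181 lay closer to the rest of their gene's values once divided by 1000 and were so changed, and 0 stood in the row of DAHP synthase. Mapped reads were estimated from the 250 lowest values above 0, read as multiples of 1 aligned base, and the estimates cover counting error only. Identifiers of 7661 of 7668 genes matched the RefSeq annotation, used here for gene order and for gene lengths. The estimates of mapped reads and of DAHP synthase reads rest on these lengths (1604 nt for DAHP synthase).

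Linear models were run in limma 3.58.1 under R 4.3.3. Rank tests, cosine fits and plots were run in Python 3.11.15, using pandas 2.3.3, numpy 2.4.6, matplotlib 3.10.9 and scipy 1.17.1. RAIN was not installed, so a circular umbrella rank test was written after it, with peaks 8, 12 or 16 h after the trough and 1000000 permutations. Limma used log2(FPKM + 1), means per regime and time point, all libraries in 1 fit and a trend, so fold changes are on that scale. P-values were adjusted by the Benjamini-Hochberg method across 7668 genes and called under 0.05. The replicate block of the rank test subtracts each sample number's mean, and since ranks are then permuted without the block its p can be too small. Both tests were tested on simulated data. A pairing of samples by number was looked for in their deviations from the mean of regime and time: same-numbered libraries of DD after SD and DD after LD correlated at 0.325 to 0.633 in 12 of 12 pairs, which did not hold for SD with LD (7 of 18 over 0.1) or in LL (0 of 12). The pairing in DD comes from these values. Within a regime, libraries of 1 day correlated over 0.1 in 30 of 30 pairs in each DD regime, so levels were also fitted on 1 value per regime and day.

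Genes named are DAHP synthase, the pathway list, the study's amino acid examples, the 10 genes most and 3 least alike in profile, and the chromosomal neighbours. The gene and the lists were chosen with earlier results of these data known. Alternatives were another pseudocount (0.1), upper-quartile scaling, a filter of 1 FPKM, separate fits, values as deposited, a block, other rhythm tests and leaving out each sample number. Responses compared between entrainments, and LL after SD against LD, were added after the data had been seen. Sequences and motifs were not analysed here.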

Additional observations from a re-analysis of the deposited data

Results flagged for a closer look

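The response of DAHP synthase to continuous darkness differed between entrainments in a test of the difference itself. The log2 change was -0.41 for DD after SD against SD and -0.77 for DD after LD against LD, a difference of 0.36 ± 0.13 (adjusted p = 0.027, limma, 28.6% of genes called). It was not called with 1 value per regime and day (adjusted p = 0.48), with only these 4 regimes in the fit (0.051), or without sample numbers 1 (0.084), 3 (0.20) or 6 (0.46, difference 0.13), and it was larger without number 7 (0.58). In the same DD libraries number 6 averaged 148 FPKM and number 7 94.5 FPKM after SD. Their part in this difference was not tested further.

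The difference between regimes also changed with the time of day in each of the 5 F tests of limma, with adjusted p of 1.1e-04 for SD against LD, 0.0093 for LL after SD against SD, 0.048 for LL after LD against LD, 0.035 for DD after SD against SD and 0.033 for DD after LD against LD. Of these, SD against LD was called under each alternative run, with adjusted p up to 0.016 when a sample number was left out.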

How the results depend on the processing

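No called result reversed. Of 739 recomputed values, 651 kept their side of the threshold, and their direction where called, or moved by less than the spread. Of the others, 56 lost a call, 2 gained one and 30 moved further. Differences that were not called could change sign. Without 1 sample number the amplitude difference of SD against LD was -10.1 to 2.06 FPKM. The log2 level difference of DD after SD against DD after LD was -0.20 to 0.25. The rhythm in SD and the earlier peak in SD than in LD (-4.71 to -4.33 h without 1 sample number) held under each alternative run. With 1 value per regime and day the level differences of DD after SD against SD (-0.41), LL after LD against LD (0.45), LL after SD against LL after LD (-0.34), LL after SD against SD (0.45) and SD against LD (-0.34) kept their size but lost the call. Leaving out 1 sample number gave -0.73 to -0.092, 0.41 to 0.49, -0.43 to -0.25, 0.32 to 0.57 and -0.46 to -0.22 in that order. The profile F test was lost with upper-quartile scaling for DD after LD (0.16), DD after SD (0.44), LL after LD (0.15) and LL after SD (0.11), for DD after SD in a fit of its own regimes (0.24) and for LL after LD with a filter of 1 FPKM (0.052); without 1 sample number the adjusted p were 0.0039 to 0.20, 0.0047 to 0.25, 0.067 to 0.63 and 0.023 to 0.32. The amplitude difference of DD after LD against LD lost its call on the log2 scale (-0.27) and with upper-quartile scaling (-20.8), and that of LL after LD against LD with upper-quartile scaling (-26.4). Without 1 sample number the amplitude difference of DD after LD against LD was -49.3 to -43.2 FPKM and stayed called. That of LL after LD against LD was then -43.4 to -32.9 FPKM. The amplitude difference of DD after SD against SD, not called with all samples, was -43.8 to -29.2 FPKM. The causes were not tested. The replicate block pairs the samples in DD, where it changed no call on DAHP synthase (adjusted p = 0.11 for the rhythm in DD after SD and in DD after LD, 0.89 for the level of DD after SD against DD after LD). As a block between SD and LD, whose numbers do not pair the samples, it left the level difference at -0.34 (adjusted p = 7.7e-05). DAHP synthase values rested on 722 to 4858 estimated reads in the free-running regimes and on 193 to 3595 in SD and LD. That no rhythm was called in the free-running regimes does not show that it was absent.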
